A study of Homo sapiens with 18 samples.

Results

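The comparison asked how far the transcriptional response to thapsigargin differed between cells with and without induced ERN2, and which cellular functions lay behind the difference. It used 12 of the 18 libraries of the series, chosen by their titles ("No ERN2" and "High ERN2", each as control and stress, 3 libraries per group), and the 14768 genes that passed the filter on low counts. All samples came from HEK293doxERN2, a human embryonic kidney cell line that carries a Flag-tagged human ERN2 transgene under the control of doxycycline. The 4 groups were cells without doxycycline given vehicle (DMSO), cells without doxycycline given 200 nM thapsigargin, and both treatments again in cells that had 100 ng/mL doxycycline. Doxycycline was present for 24 hours and thapsigargin or DMSO for 3 hours. The model is 1 cell line, the labels do not say whether replicates were separate cultures, and p-values measure the spread between these libraries alone. Doxycycline was not given to cells lacking the transgene, so an effect of the drug and an effect of ERN2 cannot be told apart.

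Thapsigargin blocks the calcium pump of the endoplasmic reticulum (ER), which empties the ER calcium store and disturbs protein folding there. Cells answer with the unfolded protein response, which runs through the sensors IRE1, PERK and ATF6: IRE1 splices the XBP1 transcript into the form that codes for a potent transcription factor, PERK slows translation and raises ATF4 and CHOP, and ATF6 is cut to release a factor that switches on chaperone genes. ERN2 encodes IRE1β, the IRE1 paralog of mucus-secreting epithelia, whose nuclease can also cleave other transcripts; ERN1 encodes the IRE1α found in most cells.

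ERN2 lay between 6.89 and 14.3 CPM (counts scaled to library size) in the 6 libraries without doxycycline and between 170 and 294 CPM in the 6 libraries with it. The RNA extraction label names colon crypt epithelium, yet of 18 colon crypt markers 15 had a median under 1 CPM and 6, CLCA1 and TFF3 among them, had no read in any of the 12 libraries, while all 11 HEK293-associated genes were over 1 CPM. The summed level of the colon markers ran from 28.8 to 61.7 CPM in the vehicle libraries and from 21.1 to 47.0 CPM in the thapsigargin libraries. Library totals ran from 14876416 to 24652240 counts. The doxycycline plus thapsigargin group was the most heterogeneous, with a mean SD per gene of 0.248 on the log2 scale against 0.153 to 0.179 in the other groups. In a chi-square comparison of counts, its replicate 1 differed from replicates 2 and 3 by 36.3 and 62.5 per degree of freedom, against 12.6 between those replicates and 7.2 to 43.6 within the other groups. Some values without that library are given below.

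The interaction is the log2 fold change with thapsigargin at 100 ng/mL doxycycline less the log2 fold change with thapsigargin without doxycycline. A negative value means a smaller rise, or a larger fall, in the induced cells. At an edgeR adjusted p under 0.01, 6 genes differed (0.0406% of all tested), of which 5 were lower (0.0339%) and 1 was higher (0.00677%). The 5 were XBP1, FICD, HERPUD1, PDIA4 and HSPA5, and the 1 was SUMO2. At an adjusted p under 0.05 there were 149 genes (1.01%), 80 lower (0.542%) and 69 higher (0.467%). The median interaction over all genes was 0.04, with 53.29% of genes above 0 and 46.7% below 0. Thapsigargin itself passed the threshold of 0.01 for 1076 genes without doxycycline (7.29%), 540 higher (3.66%) and 536 lower (3.63%). At 100 ng/mL it did so for 652 genes (4.41%), 190 higher (1.29%) and 462 lower (3.13%).

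Single libraries moved the number of genes called. Without replicate 1 of the doxycycline plus thapsigargin group, 1286 genes passed 0.01 (8.6%), 865 higher (5.79%) and 421 lower (2.82%), and all 6 of the genes above were among them. Leaving out any other library gave between 2 and 10 genes, XBP1 and FICD always among them. The other 4 genes lost the call in some of these fits, with edgeR adjusted p up to 0.0342 for HERPUD1, HSPA5 and SUMO2 and up to 0.045 for PDIA4. The interaction also moved with the GC content of the transcripts, as given near the end. When a smooth trend on GC content was removed from each library, 217 of 14351 genes passed 0.01 (1.51%), 79 higher (0.55%) and 138 lower (0.962%), again with all 6 genes. This correction was chosen after the results were seen.

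XBP1, the transcription factor downstream of IRE1, had the smallest adjusted p. Counting pools its spliced and unspliced transcripts. Its gene lies at chr22:28794555-28800597 (GRCh38). XBP1 measured 77.5, 81.8 and 79.8 CPM in the vehicle libraries without doxycycline and 469, 499 and 469 CPM after thapsigargin. With doxycycline it measured 164, 159 and 147 CPM with vehicle and 219, 203 and 219 CPM after thapsigargin. No 2 of the 4 groups overlapped: doxycycline went with more XBP1 before stress and with less XBP1 under stress. The log2 fold change with thapsigargin was 2.59 (SE 0.0952) without doxycycline and 0.45 (SE 0.0899) with it, an interaction of -2.14 (SE 0.128, edgeR adjusted p = 1.2e-06).

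FICD (chr12:108515185-108525837) encodes the ER enzyme that attaches and removes AMP on BiP. Its levels were 4.73, 5.24 and 5.26 CPM with vehicle and 29.4, 37.0 and 28.7 CPM with thapsigargin in uninduced cells. In induced cells they were 16.6, 20.8 and 15.3 CPM with vehicle and 25.8, 27.9 and 20.0 CPM with thapsigargin, so that these last groups overlapped. The interaction was -2.16 (SE 0.241, edgeR adjusted p = 0.00204). FICD overlaps SART3 on the opposite strand over 3258 bases, and whether the counting used strand is not given in the sources used here. XBP1 and FICD were past 0.01 in each of the 12 fits that left out 1 library.

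HSPA5 (chr9:125234853-125241330) encodes BiP, the main ER chaperone and the protein that holds the stress sensors inactive. It measured 481, 529 and 554 CPM with vehicle and 3130, 4820 and 2940 CPM with thapsigargin without doxycycline. The corresponding values at 100 ng/mL were 943, 914 and 841 CPM, then 1900, 2290 and 2070 CPM. Every induced library under stress was below every uninduced one, and every induced library under vehicle was above. The response was 2.8 (SE 0.165) without and 1.21 (SE 0.156) with doxycycline on the log2 scale, an interaction of -1.58 (SE 0.219, edgeR adjusted p = 0.00897).

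PDIA4 (chr7:149003062-149028641), an ER disulfide isomerase, had 268, 272 and 316 CPM with vehicle and 978, 1440 and 988 CPM with thapsigargin without doxycycline. At 100 ng/mL it had 379, 426 and 386 CPM, then 618, 584 and 588 CPM. As with BiP, the groups were apart in the same order. Its interaction was -1.40 (SE 0.192, edgeR adjusted p = 0.00897).

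HERPUD1 (chr16:56932048-56944863) encodes an ER membrane protein of the degradation machinery for misfolded proteins. Its levels rose from between 39.7 and 42.5 CPM to 607, 762 and 600 CPM without doxycycline, and from 75.4, 71.9 and 67.5 CPM to 521, 465 and 514 CPM with it. The fold change therefore remained large in both arms, 4.01 (SE 0.122) and 2.8 (SE 0.116) on the log2 scale. The difference was -1.21 (SE 0.155, edgeR adjusted p = 0.00741). HERPUD1 overlaps the genes AC012181.1 and AC012181.2 on its own strand over 699 and 1065 bases, so its counts are less certain.

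SUMO2 (chr17:75165586-75182983), a small protein that is attached to other proteins as a tag, was the 1 gene past 0.01 in the other direction. It fell with thapsigargin from 223, 243 and 252 CPM to 113, 123 and 122 CPM without doxycycline, and measured 229, 240 and 248 CPM with vehicle and 221, 269 and 253 CPM with thapsigargin at 100 ng/mL. Only the uninduced thapsigargin libraries stood apart. The interaction was 1.05 (SE 0.143, edgeR adjusted p = 0.00897). SUMO2 has near-identical pseudogene copies and overlaps JPT1, so its counts are less certain.

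**Figure D1:**
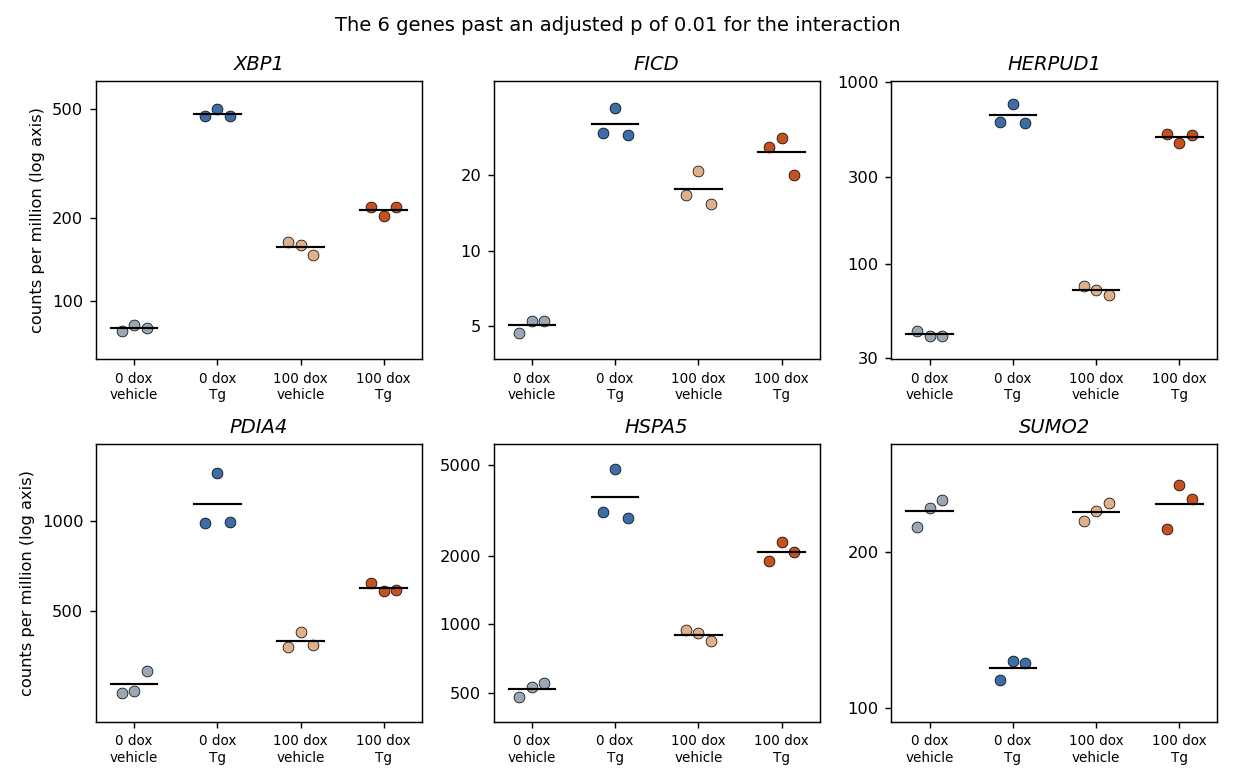
CPM (log axis) in each of the 12 libraries for the 6 genes past an adjusted p of 0.01. Points are libraries and bars are group means (n = 3). In the 5 ER genes the induced cells started higher and ended lower than uninduced cells, and SUMO2 was low only in uninduced cells given thapsigargin.

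Promoter sequence was set beside these genes because ATF6 and XBP1 act through known DNA elements. The ER stress response element, ERSE, was searched as CCAAT and CCACG with any 9 bases between them and its variant ERSE-II as ATTGG and CCACG with any 1 base between them, the XBP1 element UPRE as TGACGTGG, the ATF4 element as TTGCATCA and the heat-shock element as GAA, TTC and GAA with any 2 bases between each, each on both strands of the RefSeq window from 250 bases before to 50 bases after the start. A window was found for 11164 of the 14768 genes. ERSE was present in 14 of these (0.125%), and 3 of the 14 were XBP1, HSPA5 and FICD. ERSE-II was present in 12 (0.107%), HERPUD1 among them. The windows of PDIA4 and SUMO2 held neither. The stretches below lie upstream of the genes, at chr22:28800598-28800769 on the minus strand for XBP1, chr9:125241344-125241543 on the minus strand for HSPA5, chr12:108515077-108515184 on the plus strand for FICD and chr16:56931942-56932047 on the plus strand for HERPUD1 (RefSeq, GRCh38.p14). Capitals mark ERSE in the first 3 and, in HERPUD1, the ATF4 element followed by ERSE-II.
XBP1: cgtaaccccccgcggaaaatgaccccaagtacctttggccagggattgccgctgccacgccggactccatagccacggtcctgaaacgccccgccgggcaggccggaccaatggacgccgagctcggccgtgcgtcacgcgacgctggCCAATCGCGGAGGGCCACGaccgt
HSPA5: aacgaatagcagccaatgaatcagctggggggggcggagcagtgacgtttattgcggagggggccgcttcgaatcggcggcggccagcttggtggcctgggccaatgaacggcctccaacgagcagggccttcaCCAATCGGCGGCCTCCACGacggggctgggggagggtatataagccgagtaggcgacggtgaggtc
FICD: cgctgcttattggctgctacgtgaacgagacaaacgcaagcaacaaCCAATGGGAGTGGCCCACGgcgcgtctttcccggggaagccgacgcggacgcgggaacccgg
HERPUD1: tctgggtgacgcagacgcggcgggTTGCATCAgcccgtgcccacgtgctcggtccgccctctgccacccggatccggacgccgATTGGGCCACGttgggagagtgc

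Distances are counted from the RefSeq start, which differs for these genes from the start of the GENCODE gene printed above. The element lay 52 bases before the start in XBP1, 66 in HSPA5 and 154 in FICD, in each case on the strand of the gene. Of the 80 genes lower at 0.05, 62 had a window, and 3 held ERSE, 3 held ERSE-II (HERPUD1, HYOU1 and SDF2L1) and 2 held the ATF4 element (HERPUD1 and CHAC1, an enzyme that breaks down glutathione). Of the 69 genes higher at 0.05, 56 had a window and 0 held ERSE or ERSE-II. UPRE was present in 110 of all 11164 windows (0.985%), in 2 of the 62 (HYOU1 and TXNDC11) and, among genes lower at 0.01 with the GC trend removed, in 1 of 118 (0.847%). The ATF4 element was present in 0.448% of all windows and in 1 of the 56 (SH3BGRL). The heat-shock element was present in 1 of the 62 (GAS5) and 1 of the 56 (HSPA8). A match describes letters in this window and does not show that a factor binds there.

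Across the 80 genes lower at 0.05, the median log2 fold change with doxycycline was 0.28 in vehicle libraries and -0.93 in thapsigargin libraries. The value was above 0 for 54 of the 80 genes under vehicle and for 2 under thapsigargin. Over all 14768 genes it was above 0 for 6288 under vehicle and 7943 under thapsigargin. The interaction is also the doxycycline effect under thapsigargin less that under vehicle. These signs therefore in part restate the choice of genes. The genes varied widely in both values. DNAJB9, which encodes ERdj4, a BiP cochaperone that restrains IRE1α, lay at 2.01 (SE 0.219) with vehicle and at 0.05 (SE 0.204) with thapsigargin, so induced and uninduced cells had like levels under stress: 71.4, 99.7 and 56.1 CPM without doxycycline and 62.4, 84.8 and 89.0 CPM with it. HYOU1, an ER chaperone of the HSP70 family, lay at -0.20 with vehicle and -1.26 with thapsigargin. XBP1 was between them, at 0.97 (SE 0.0911) and -1.16 (SE 0.0907).

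For the 69 genes higher at 0.05, the median log2 fold change with doxycycline was -0.10 in vehicle libraries and 0.85 in thapsigargin libraries. The value was above 0 for 16 of the 69 under vehicle and for 68 under thapsigargin. Here too the signs in part restate the choice.

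**Figure D2:**
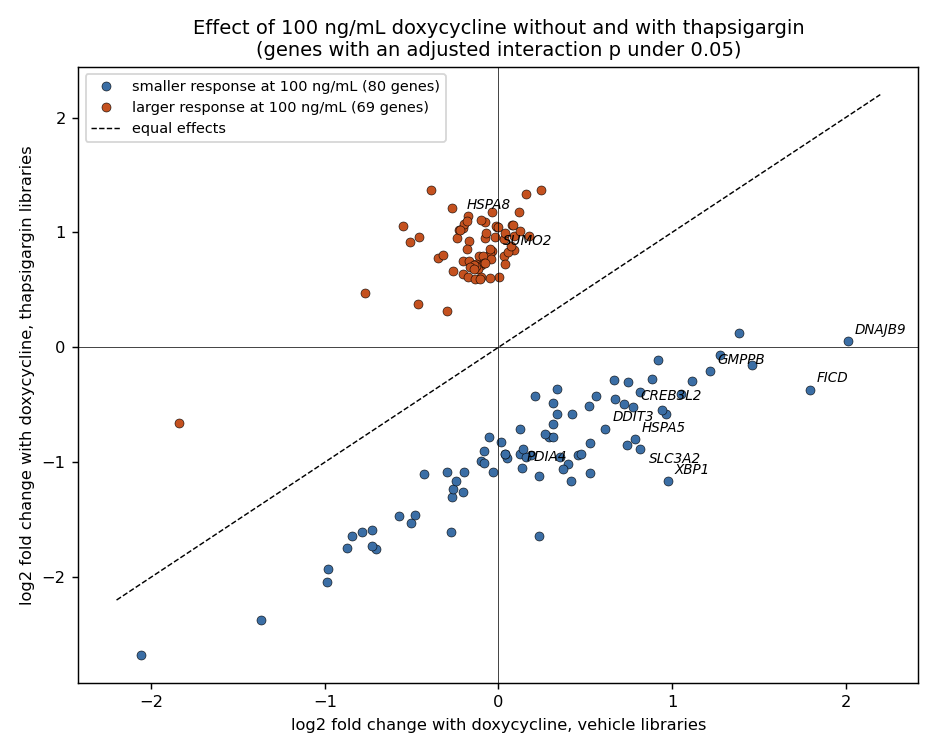
Log2 fold change with 100 ng/mL doxycycline in vehicle libraries (x axis) and in thapsigargin libraries (y axis) for the genes with an adjusted interaction p under 0.05. The 80 genes with a smaller response lie below the line of equal effects and spread from -2 to 2 on the x axis, and 68 of the 69 genes with a larger response lie above 0 on the y axis, most of them close to 0 on the x axis. The side of the line is fixed by how the genes were chosen.

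The genes were chosen on the difference of these responses, so the signs of either response in part restate the choice, and they are given as a description. Over all 14768 genes the fold change in uninduced cells was above 0 for 6116 and below 0 for 8652. Of the 80 lower genes, 75 had a positive fold change with thapsigargin in uninduced cells. In 40 of them it was positive in induced cells too, and in 35 it was negative there. All 69 higher genes had a negative fold change in uninduced cells, 50 of them a positive one in induced cells and 19 a smaller negative one. The median response of the lower genes was 1.24, 0.84 and 0.00 at 0, 10 and 100 ng/mL. That of the higher genes was -0.85, -0.44 and 0.10.

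**Figure D3:**
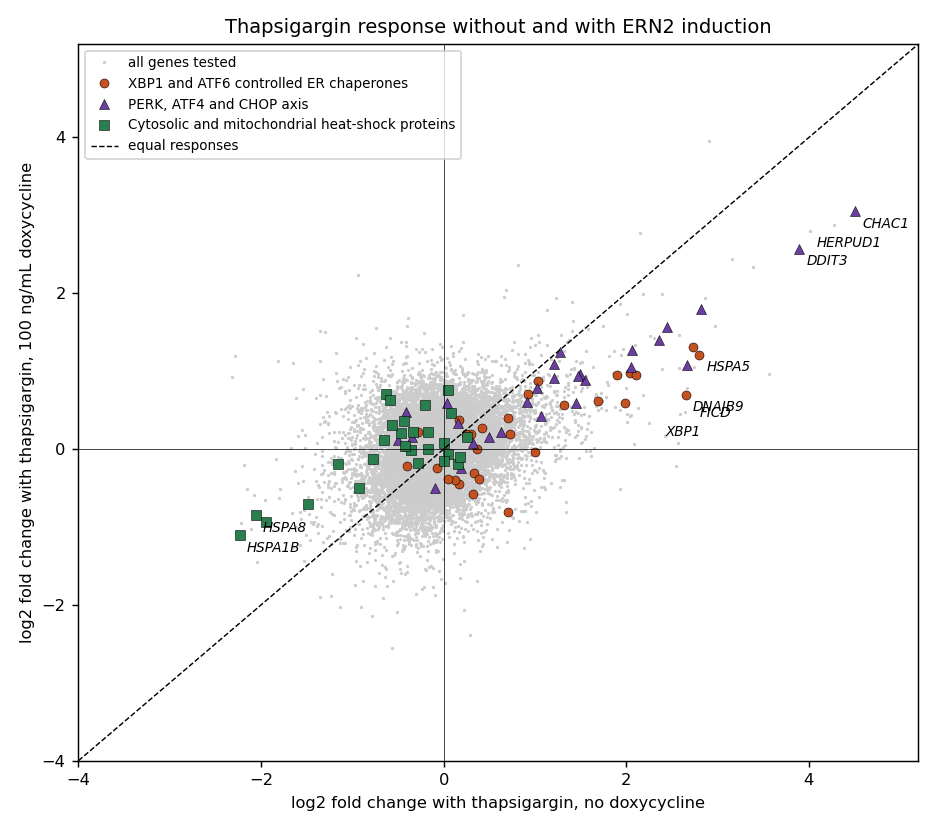
Log2 fold change with thapsigargin without doxycycline (x axis) and at 100 ng/mL (y axis). Grey points are all 14768 genes, and symbols mark members of 3 lists. Members of the chaperone and PERK lists with the largest rises lie below the line of equal responses, and the heat-shock proteins with the largest falls, HSPA8 and HSPA1B, lie above it. These members were picked by a response that enters the difference, so their side of the line in part follows from the choice.

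A list of responsive genes was also drawn from the 10 ng/mL libraries alone. There 212 genes passed an adjusted p of 0.01 (1.45%), of which 169 rose (1.16%) and 43 fell (0.294%). The median response of the 169 was 1.22 at 10 ng/mL, 1.27 without doxycycline and 0.77 at 100 ng/mL. The interaction was negative for 143 of them (84.6%, against 46.7% of all genes), and 35 passed 0.05 with a smaller response and 0 with a larger one. With the GC trend removed, 152 of the 165 with a GC value were negative and 39 passed 0.01. For the 43 that fell, the medians were -1.09, -1.14 and -0.94, and 29 had a smaller fall at 100 ng/mL, 4 of them past 0.05. The 212 genes called at 10 ng/mL became 28 without vehicle replicate 2, 117 without vehicle replicate 3, 57 without thapsigargin replicate 2 and 494 without thapsigargin replicate 3. With a replicate block the number was 3620, and the genes described here came from the fit without a block. All 169 kept their sign without doxycycline and 167 at 100 ng/mL.

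Among functions, the ER chaperones controlled by XBP1 and ATF6 had the most members past 0.05 by count, 8 of 29, all lower. The snoRNA host genes given below had 5 of 18, and over all genes 80 of 14768 were lower (0.542%). The function lists were chosen with earlier results of these data known. Of the 29 members tested, 26 had a negative interaction (89.7%, against 46.7% of all genes), with a median of -0.61. HSPA5 and PDIA4 passed 0.01. With the GC trend removed the median was -0.70 and 11 passed 0.01. Their median response was 0.70, 0.47 and 0.22 at 0, 10 and 100 ng/mL. Thapsigargin passed 0.01 with a rise for 14 members without doxycycline and for 7 at 100 ng/mL. The members at 0.05 beyond HSPA5, PDIA4, DNAJB9 and HYOU1 were MANF, a secreted ER stress protein (-1.16, SE 0.202), SDF2L1, part of the BiP complex (-1.42, SE 0.299), TXNDC11, a thioredoxin-domain protein (-1.04, SE 0.148), and P4HB, the founding protein disulfide isomerase (-0.89, SE 0.177). P4HB had a log2 fold change of 0.32 in uninduced cells, which did not pass, and fell by 0.57 in induced cells, where it measured 451, 397 and 378 CPM with thapsigargin and 525, 685 and 615 CPM with vehicle.

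The sensors and factors of the unfolded protein response had the lowest median of all lists, -0.74, with 12 of 14 members below 0. XBP1 passed 0.01, and CREB3L2, an ATF6-like factor anchored in the ER membrane, passed 0.05 (-1.29, SE 0.230). EIF2AK3, which encodes PERK, passed 0.01 when the GC trend was removed (-1.11). ERN1 had a response of 1.0 (SE 0.163) in uninduced cells and 0.28 (SE 0.173) in induced cells, and its interaction did not pass (-0.72, SE 0.237, edgeR adjusted p = 0.103). Its levels were 7.66, 7.52 and 8.63 CPM with vehicle and 16.7, 17.7 and 13.1 CPM with thapsigargin, against 3.93, 4.82 and 5.30 CPM and 6.08, 5.24 and 5.68 CPM at 100 ng/mL. Thus ERN1 was lower in every induced library than in every uninduced one. ERN2, whose counts pool transgene and endogenous transcripts, had an interaction of -0.93 (SE 0.260, edgeR adjusted p = 0.0811), and of -1.22 (adjusted p = 0.00248) without replicate 1 of the induced thapsigargin group.

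In ER-associated degradation, 21 of 29 members were below 0, with a median of -0.28. HERPUD1 passed 0.01, and DERL3, a channel protein of the pathway, lay just outside it (-1.55, SE 0.219). SYVN1, the ubiquitin ligase HRD1, passed 0.05 (-0.95, SE 0.182). With the GC trend removed the median was -0.34 and 5 members passed 0.01.

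The PERK, ATF4 and CHOP axis responded in both arms. Its median response was 1.21 without doxycycline and 0.78 at 100 ng/mL, and thapsigargin passed 0.01 with a rise for 17 and 14 of 29 members in the uninduced and induced cells. The median interaction was -0.42, with 23 members below 0, and 4 passed 0.05, all lower. DDIT3, the gene of the death-promoting factor CHOP, measured 154, 158 and 150 CPM without and 112, 82.7 and 88.1 CPM with doxycycline under thapsigargin, and 9.62 to 17.3 CPM in the vehicle libraries. Its interaction was -1.32 (SE 0.191, edgeR adjusted p = 0.0101). CHAC1 (-1.46), STC2, a secreted glycoprotein (-1.01), and ATF3, a stress-induced transcription factor (-1.0), were the others. ATF4 itself, which is controlled mainly by translation, rose in both arms, by 1.21 (SE 0.147) and 0.91 (SE 0.146), with an interaction of -0.30 (SE 0.205, edgeR adjusted p = 0.374). The largest value in the list was that of TRIB3, an inhibitor of AKT and ATF4, at -1.59 (SE 0.429), which did not pass.

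Amino acid synthesis and transport had a median of -0.33, with 18 of 22 members below 0. SLC3A2, the heavy chain of the amino acid exchangers, passed 0.05 (-1.70, SE 0.258). Under thapsigargin it measured 281, 346 and 348 CPM without doxycycline and 229, 161 and 139 CPM with it. The cytosolic aminoacyl-tRNA synthetases had a median of 0.05 (-0.01 with RLE scaling and -0.12 with library totals) with 9 of 20 below 0 and 0 past 0.05, and their median response was 0.34 without and 0.40 with doxycycline. RARS had the largest interaction among them, 0.87 (SE 0.329), and did not pass. The difference between these lists was not tested.

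snoRNA host genes, which carry small nucleolar RNAs in their introns and whose spliced transcripts are broken down in a translation-dependent way, were set apart after their values were seen (symbols beginning SNHG, with GAS5 and C6orf48). Their median response was 0.32 without doxycycline and 0.07 at 100 ng/mL. Of 18, 12 had a negative interaction, with a median of -0.48, and 5 passed 0.05. SNHG17 measured 17.3 to 21.8 CPM with vehicle, then 73.2, 69.1 and 87.2 CPM with thapsigargin in uninduced cells, and 23.6, 29.8 and 24.4 CPM, then with thapsigargin 46.8, 30.5 and 32.6 CPM in induced cells. SNHG12 (-1.31), SNHG15 (-1.59), C6orf48 (-1.03) and GAS5 (-0.70) were the others.

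Cargo receptors of the early secretory pathway had a median response of -0.02 without doxycycline and -0.34 at 100 ng/mL, where 7 of 21 members passed 0.01 with a fall. Their median interaction was -0.28, with 18 below 0, and -0.51 with the GC trend removed, when 6 passed 0.01. TMED9, a p24 cargo receptor, had the largest value, -1.18 (SE 0.241, edgeR adjusted p = 0.0344), with 153.8 ± 27.5 CPM (SD, n = 3) under thapsigargin in uninduced and 74.3 ± 16.2 CPM in induced cells. LMAN2L and SURF4 passed 0.05 with it. The SEC61 translocon and TRAP list had a median of -0.27 (11 of 15 below 0), which ran from -0.47 to -0.04 when single libraries were left out. SEC61A1, the channel itself, passed 0.05 (-1.05, SE 0.232), while SEC61G, its small subunit, had 1.29 (SE 0.431) and did not pass. Signal peptidase and oligosaccharyltransferase had a median of -0.25, which ran from -0.41 to -0.02 in those fits and was -0.46 with the GC trend removed. STT3A, the catalytic subunit of the latter, passed 0.05 (-0.98, SE 0.214). Its levels were 344, 471 and 290 CPM without and 116, 136 and 150 CPM with doxycycline under thapsigargin.

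Signal recognition particle genes went both ways, SRPR, the receptor subunit, at -0.92 (SE 0.191) and SRP14, a particle protein, at 0.82 (SE 0.161), both past 0.05. SRP9 had the largest value of this list (1.8, SE 0.494) without passing. The list's median of 0.39 over 8 genes turned to -0.07 when the GC trend was removed. COPII and COPI coats had medians of -0.04 and -0.01, with 0 past 0.05, and the COPII median was -0.33 with the GC trend removed. SEC24D (-1.01) and COPG1 (-0.73) led these lists without passing. N-glycan precursor synthesis had a median of -0.30, and GMPPB, which makes GDP-mannose, passed 0.05 (-1.43, SE 0.263).

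**Figure D4:**
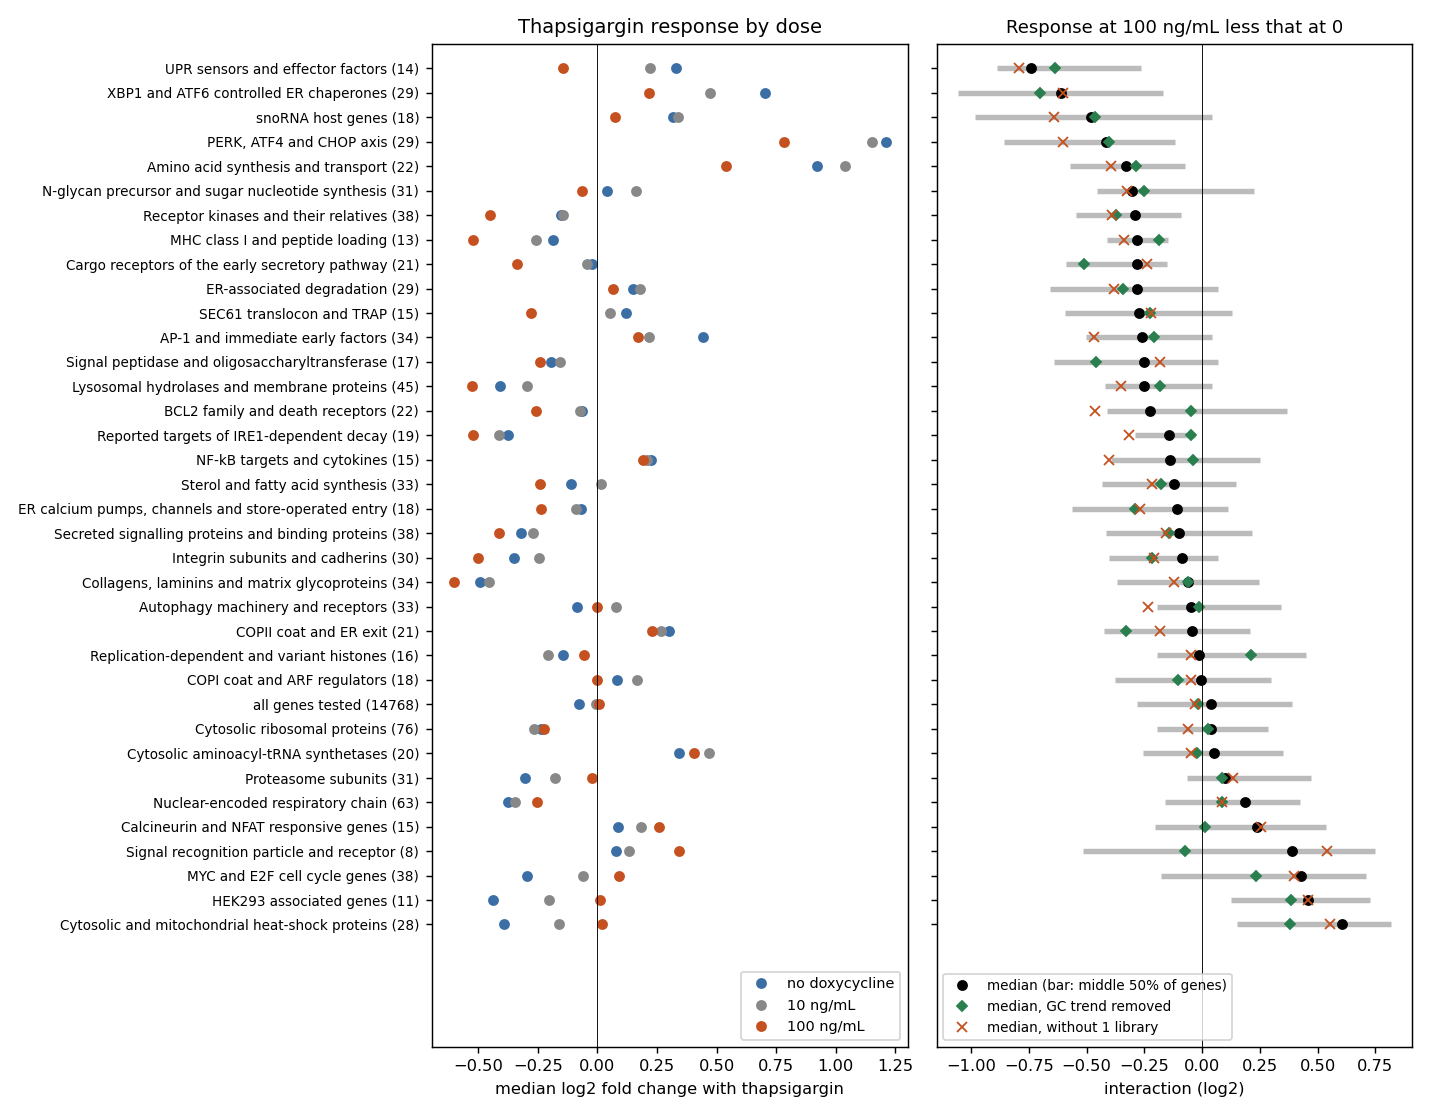
Left, median log2 fold change with thapsigargin at each dose of doxycycline for every function list (number of genes tested in brackets). Right, median interaction with the middle 50% of genes as a bar, the median with the GC trend removed (diamonds) and the median without replicate 1 of the induced thapsigargin group (crosses). Sensors and chaperones lie at the top with medians of -0.74 and -0.61, and heat-shock proteins at the bottom with 0.60.

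Receptor kinases had a median interaction of -0.29 with 30 of 38 below 0 and 0 past 0.05, EPHA2 having the largest value (-1.0, SE 0.228, edgeR adjusted p = 0.0539). Their median fold change with doxycycline was -0.57 with vehicle and -0.94 with thapsigargin. Lysosomal genes had a median interaction of -0.25, and NEU1, the lysosomal sialidase, passed 0.05 (-1.01, SE 0.206), while CTSO had the largest value (1.02, SE 0.834) and did not pass. Integrins and cadherins had -0.08, secreted signalling proteins -0.10 and MHC class I genes -0.28. Their largest values, of ITGA9 (-1.25), INHBA (-2.49, SE 0.957) and TAP1 (-0.56), did not pass.

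Collagens, laminins and matrix glycoproteins had a median interaction of -0.06, although their median fold change with doxycycline was -1.31 with vehicle and -1.50 with thapsigargin. Thapsigargin passed 0.01 with a fall for 13 of 34 in each arm. FN1, fibronectin, passed 0.05 (-0.62, SE 0.137), with a response of -0.13 in uninduced and -0.75 in induced cells, while COL5A1, COL1A1 and AGRN passed 0.01 in the other direction when the GC trend was removed (0.96, 0.96 and 0.82). COL5A1 measured 207, 218 and 222 CPM with vehicle and 75.8, 80.9 and 68.1 CPM with thapsigargin in uninduced cells, and 53.0, 48.9 and 50.7 CPM and 34.9, 28.1 and 26.0 CPM in induced cells. NID2 had the largest uncorrected value (-0.78, SE 0.351) and did not pass.

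The reported targets of IRE1-dependent decay had a median interaction of -0.15, with 15 of 19 below 0 and 0 past 0.05. The median was -0.05 with the GC trend removed, with 11 of 19 below 0, against 7465 of 14351 over all genes, and without replicate 1 of the induced thapsigargin group it was -0.32. Their median response to thapsigargin was -0.37 without and -0.52 with doxycycline, and their median fold change with doxycycline was -0.74 with vehicle and -1.35 with thapsigargin. DGAT2 had the largest value (1.07) with an SE of 1.16. Sterol and fatty acid synthesis had a median of -0.12, with HSD17B7 (-0.97, SE 0.195) and DHCR7 (-0.95, SE 0.207), both enzymes of cholesterol synthesis, past 0.05. ER calcium pumps and store-operated entry had a median of -0.11 with 0 past 0.05, and ORAI3 had the largest value (-0.93).

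Heat-shock proteins of the cytosol and mitochondria had the highest median interaction, 0.60, with 23 of 28 members above 0, against 53.29% of all genes. Their median response was -0.39, -0.16 and 0.02 at 0, 10 and 100 ng/mL, and thapsigargin passed 0.01 with a fall for 8 members in uninduced and 3 in induced cells. HSPA8, the constitutive cytosolic HSP70 (chr11:123057489-123063230), measured 1520, 1800 and 1890 CPM with vehicle and 438, 333 and 480 CPM with thapsigargin without doxycycline, then 1530, 1630 and 1710 CPM and 826, 993 and 882 CPM at 100 ng/mL. The 2 vehicle groups overlapped and the 2 thapsigargin groups did not. Its interaction was 1.21 (SE 0.187, edgeR adjusted p = 0.0109). HSPA1B, the inducible HSP70, passed 0.05 (1.13, SE 0.213), but it shares reads with the near-identical HSPA1A (1.01, SE 0.254). HSPA4L had the largest value (1.35, SE 0.418) without passing. The median was 0.38 with the GC trend removed, when 3 members passed 0.01. The HSPA8 window held the heat-shock element at 230 and 55 bases before the RefSeq start, which lies inside the longer GENCODE gene given above, as 1 of 35 such genes (0.314% of 11164). The stretch at chr11:123062137-123062286 (minus strand) that holds the nearer one is shown with the match in capitals, on the strand opposite to the element as searched.
HSPA8: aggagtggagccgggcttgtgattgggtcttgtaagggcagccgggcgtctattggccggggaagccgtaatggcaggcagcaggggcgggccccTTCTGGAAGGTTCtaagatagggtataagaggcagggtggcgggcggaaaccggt

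Cell cycle genes had a median of 0.43, with 24 of 38 above 0, against 53.29% of all genes. AURKA and CCNB1, a kinase and a cyclin of mitosis, passed 0.05 (0.61, SE 0.130 and 0.65, SE 0.141), and CENPE had the largest value (1.86, SE 0.522) without passing. AURKA was at 0.47 and CCNB1 at 0.33 with the GC trend removed, and CCNB1 no longer passed 0.05 (edgeR adjusted p = 0.122). The fold changes of AURKA and CCNB1 with thapsigargin were -0.60 and -0.70 in uninduced cells and 0.01 and -0.05 in induced cells. The list's median response was -0.30 without doxycycline and 0.09 with it. With the GC trend removed the list's median was 0.23. In that fit 0 members passed 0.01 with a higher value and 1 with a lower one, CDC6 (-0.85).

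Nuclear-encoded respiratory chain genes had a median of 0.19, with 42 of 63 above 0, against 53.29% of all genes. NDUFB3, COX7B and SDHC passed 0.05 (1.06, 1.06 and 0.86). Thapsigargin passed 0.01 with a fall for 15 of the 63 genes in uninduced and 2 in induced cells. UQCRB had the largest value (1.39) and did not pass. The median was 0.09 with the GC trend removed, and between 0.00 and 0.26 when single libraries were left out. Ribosomal proteins had a median of 0.04 over 76 genes (-0.03 with RLE scaling and -0.13 with library totals) and proteasome subunits one of 0.10 over 31 (-0.07 with library totals), with 0 past 0.05 in each. RPL39 (1.8, SE 0.668) and PSMA4 (1.24, SE 0.320) had their largest values.

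The remaining lists had no member past 0.05 or only 1. RCAN1, the feedback inhibitor of calcineurin, was the 1 of 15 calcineurin and NFAT responsive genes, with 449, 418 and 463 CPM without and 239, 212 and 249 CPM with doxycycline under thapsigargin, and 38.7 to 49.5 CPM in the vehicle libraries (interaction -1.05, SE 0.160, edgeR adjusted p = 0.0101). The list's median was 0.24, and 0.01 with the GC trend removed. AP-1 and immediate early factors had a median of -0.26 with NR4A1 the largest (-0.85). NF-kB targets had -0.14 with CXCL8 the largest (-0.88), the BCL2 family -0.22 with HRK (-1.31), autophagy genes -0.05 with ATG4A (1.34), and histones -0.01 with HIST1H4H (-0.99). The HEK293-associated genes had a median of 0.46, with 9 of 11 above 0 and LIN28B the largest (1.04). Of the colon crypt markers only 3 could be tested, CDX2 having the largest value (-0.86).

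Several list medians moved when single libraries were left out. Without replicate 1 of the induced thapsigargin group the median was -0.47 for AP-1 factors, -0.40 for NF-kB targets, -0.46 for the BCL2 family, -0.24 for autophagy genes, -0.18 for the COPII coat, -0.21 for integrins and cadherins, -0.27 for ER calcium genes, -0.22 for sterol synthesis, -0.12 for matrix genes and -0.60 for the PERK axis. It was 0.09 for the respiratory chain, and it changed sign for the tRNA synthetases (-0.05) and the ribosomal proteins (-0.06). The median over all genes was then -0.03.

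Members passed 0.01 with the GC trend removed in lists that had 0 past 0.01 without the correction. Over all genes 138 of 14351 were lower in that fit (0.962%) and 79 higher (0.55%). Among those lower were 7 of 18 snoRNA host genes, a list set apart after its values were seen. Others were 6 of 21 cargo receptors, 5 of 29 genes of the PERK axis and 3 of 38 receptor kinases. Also lower were 2 of 22 amino acid genes, 2 of 31 genes of N-glycan synthesis and 2 of 30 integrins and cadherins. Sterol synthesis had 2 of 33, signal peptidase and oligosaccharyltransferase 2 of 17 and signal recognition particle genes 2 of 8. Those higher were 3 of 28 heat-shock proteins, 3 of 34 matrix genes, 1 of 63 respiratory chain genes and 1 of 11 HEK293-associated genes. The BCL2 family and NF-kB medians moved to -0.05 and -0.04, and that of histones to 0.21.

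Proteins that enter the secretory pathway carry a hydrophobic signal or membrane span. For 13460 of the genes tested the protein of the longest coding sequence was searched for a hydrophobic segment, either a window of 19 residues with a mean hydropathy of at least 1.6 or, within the first 40 residues, a window of 11 with at least 2.0. This is a coarse proxy for membrane spans and signal peptides. A segment was found in 36.9% of these genes, in 50 of 67 of the genes lower at 0.05 (74.6%) and in 6 of 69 of those higher (8.7%). With the GC trend removed and a threshold of 0.01 the shares were 96 of 128 (75%) and 13 of 79 (16.5%). Over all genes, the median interaction was -0.10 for 4961 genes with a segment and 0.13 for 8499 without. The median response of the genes with a segment was -0.15 without and -0.23 with doxycycline, and that of the others was -0.04 and 0.12.

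The interaction moved with GC content across the transcriptome. From the lowest to the highest quartile of transcript GC content the median interaction was 0.48, 0.16, -0.12 and -0.26. In uninduced cells the median response was -0.17, -0.08, -0.03 and -0.04 over the same quartiles, and in induced cells it was 0.37, 0.11, -0.10 and -0.26. The libraries themselves differed in this respect: the lowest quartile less the highest, as a median log2 deviation from each gene's mean, was 0.46 and 0.70 in replicates 2 and 3 of the induced thapsigargin group but -0.24 in replicate 1. In the induced vehicle group it was 0.06, -0.60 and -0.12, and in the uninduced groups it lay between -0.40 and 0.30. With the GC trend removed, the interaction of single genes moved by unlike amounts, that of CCNB1 from 0.65 to 0.33 and that of CREB3L2 from -1.29 to -1.37. The cause of such shifts was not tested. Genes with a hydrophobic segment had the lower median in every quartile, from 0.34 against 0.55 in the lowest to -0.34 against -0.21 in the highest. With the GC trend removed the medians over all genes with and without a segment were -0.14 and 0.04.

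**Figure D5:**
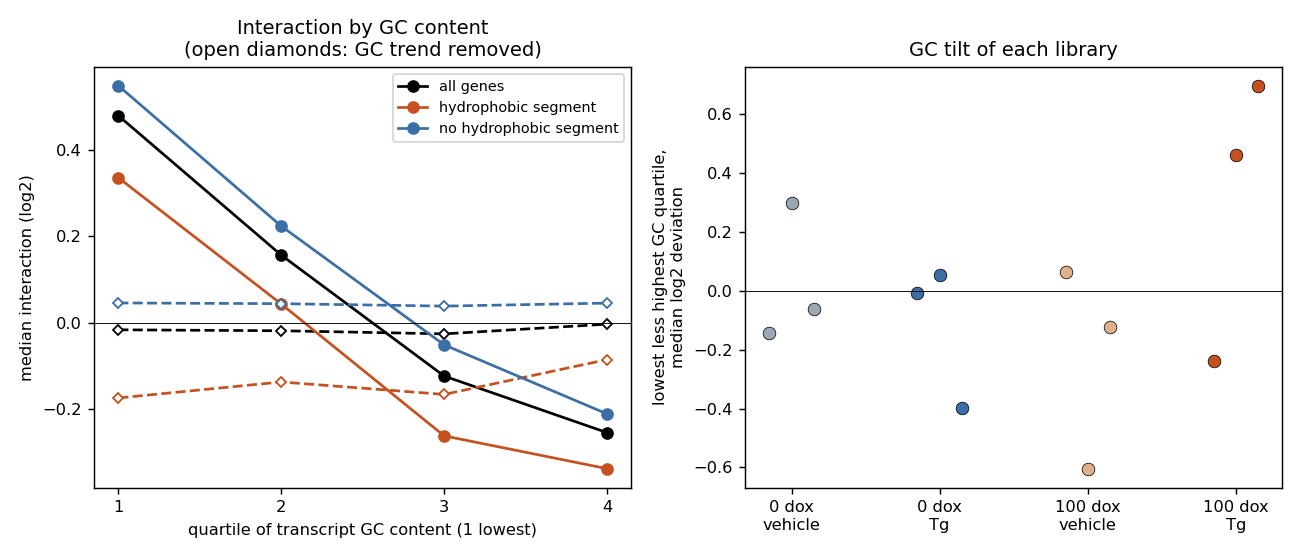
Left, median interaction by quartile of transcript GC content for all genes and for genes with or without a hydrophobic segment, as fitted (filled circles) and with the GC trend removed (open diamonds). Right, the GC tilt of each library, with 2 of the 3 induced thapsigargin libraries above 0.4 and the other 10 libraries at or below 0.3. Genes with a segment lie below the others in each quartile in both fits.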

How the data were processed

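RNA of HEK293doxERN2 cells was sequenced from libraries made with a stranded mRNA kit. Per the labels' processing notes and the study's methods, the authors aligned reads with STAR to hg38 within the VIPER pipeline and used DESeq2. The values the authors deposited are counts for each gene symbol, not normalized. Versions, annotation and the strand setting of the counting are not given in the sources used here. The table has 25435 rows, 28 of which bear a date in place of a symbol, and 0 columns of values were left unused.

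Groups came from the sample titles. The 12 libraries (14876416 to 24652240 counts, 3 per group, 4 groups) went into 1 quasi-likelihood fit of edgeR 4.0.16 (R 4.3.3) with TMM factors, after filterByExpr at a minimum count of 10. P-values were adjusted over 14768 genes (Benjamini-Hochberg), with a threshold of 0.01. A standard error (SE) is the log2 fold change divided by the root of the F statistic. CPM are TMM-scaled. The 6 libraries at 10 ng/mL were fitted alone. Replicates differed by more than sampling noise, and each library counts once. This spread does not show that they were separate cultures. The fit was tested on simulated data.

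Alternatives were DESeq2 1.42.0, other scalings, no filter, all 18 libraries, replicate blocks, a threshold of 0.05 and leaving out each library. Removal of a lowess trend (span 0.3) of each library on GC content or length was added after the results were seen. GC content, positions and proteins came from GENCODE 29 and cover 97.2% of the genes tested. Promoter windows came from RefSeq. Figures were drawn with matplotlib 3.10.9.

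The genes named were ERN2, ERN1, XBP1, ATF4, HSPA5, DNAJB9 and DDIT3, the 10 with the smallest adjusted p in each direction among those past 0.01 (or all where fewer), and of each list up to 4 members past 0.01, or else the 1 with the largest interaction. Others were chosen after their values were seen. The function lists and the members were chosen with earlier results of these data known.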

Additional observations from a re-analysis of the deposited data

Results flagged for a closer look

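The response to thapsigargin differed between uninduced and induced cells, by the interaction test of edgeR at an adjusted p under 0.01, for XBP1 (-2.14), FICD (-2.16), HERPUD1 (-1.21), PDIA4 (-1.40) and HSPA5 (-1.58), which rose less at 100 ng/mL doxycycline, and for SUMO2 (1.05), which fell in uninduced cells and did not pass the test in induced cells. All 6 kept their direction in every fit in which 1 of the 12 libraries was left out. The groups of 3 are too small for a test of single outlying libraries.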

How the results depend on the processing

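The number of genes past the threshold for the interaction depended on the processing, and the cause was not tested. Against 6 genes (1 higher, 5 lower), DESeq2 gave 341 (138 higher, 203 lower), RLE scaling 14 (3 and 11), library totals 20 (2 and 18), no filter on low counts 86 (36 and 50), all 18 libraries 35 (7 and 28) and an adjusted p of 0.05 149 (69 and 80). Removing the GC trend gave 217 (79 and 138), GC and length trends 213 (79 and 134), and the GC trend without replicate 1 of the induced thapsigargin group 1084 (598 and 486). All 6 genes were among the calls of DESeq2, both scalings, no filter and all 18 libraries. At 0.05 the split of higher and lower genes was 69 and 80 with TMM, 68 and 112 with RLE and 58 and 236 with library totals, which moved the median interaction of all genes from 0.04 to -0.03 and -0.14.

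Among the 12 libraries, same-numbered ones did not deviate together (8 of 18 pairs with a correlation over 0.1, range -0.551 to 0.557). These correlations were taken with the GC trend in place, so they cannot decide whether replicate numbers mark pairs. The main fit had no replicate block. The libraries at 10 ng/mL were not part of these correlations. With a replicate block the interaction gave 3 genes (0 higher, 3 lower), within each treatment 1 (0 and 1), within each dose 2 (0 and 2), and with the GC trend removed 259 (104 and 155). Of the 6 genes, 2, 1 and 2 were among the calls of the first 3 of these fits, and 6 among those of the last. For thapsigargin without doxycycline (1076) the blocks within treatment and dose gave 30 and 532, and with the GC trend removed 2931. At 100 ng/mL (652) the replicate block gave 354, those within treatment and dose 4 and 125, and that with the GC trend removed 1705. At 10 ng/mL (212) the replicate block gave 3620. Whether replicate numbers mark pairs at that dose was not tested, and the 169 and 43 genes described above came from the fit without a block.

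Thapsigargin without doxycycline gave 1845 genes with DESeq2, 2595 with the GC trend removed, 2604 with GC and length removed, 3075 with GC removed and without that replicate 1, and 2378 at 0.05. At 100 ng/mL the same settings gave 1581, 1603, 1637, 2645 and 2175, and no filter gave 1033. At 10 ng/mL DESeq2 gave 1101, no filter 529 and 0.05 1009. Leaving out 1 library gave 2 to 1286 genes for the interaction (0 to 865 higher, 2 to 421 lower), 484 to 1624 without doxycycline, 157 to 3076 at 100 ng/mL and 28 to 494 at 10 ng/mL. Where a group kept 2 libraries, the fit pooled their spread with the other groups. With 3 libraries a group and 14876416 to 24652240 counts each, differences that did not pass are not shown to be absent.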
